A study of Homo sapiens with 9 samples.

Results

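A set of 41 human genes was followed across the arrays: the classical interferon-stimulated genes, the transcription regulators that act on them, and the machinery that prepares peptides for major histocompatibility complex (MHC) class I molecules. Members were matched to probe sets by gene symbol, with no threshold on any measured value. Of the 41 genes, 40 had at least 1 probe set annotated to that single symbol, with 70 probe sets between them, out of 19775 genes and 54613 probe sets measured. STAT2 was not analysed here. The RNA came from Rh30, a human fusion-positive rhabdomyosarcoma (FP-RMS) cell line that carries the PAX3-FOXO1 fusion, in 3 groups of 3 arrays each. Adherent cells grew in RPMI with 10% FBS. Spheres were harvested after 48 h in Neurobasal medium with B27 (1X), bFGF (80 ng/ml), EGF (40 ng/ml) and insulin (50 µg/ml). Xenografts were Rh30 tumors in SCID/beige mice, hosts that lack T and B lymphocytes and have impaired natural killer cells. For these tumors the sample labels give subcutaneous flank implants in Matrigel from adherent or sphere cultures, whereas the study's methods for the arrays give intramuscular injection of adherent cells. All 3 groups share 1 cell line and the fusion, and the same adherent arrays serve as the control for both other groups, so the comparisons are not independent. The probes are human, and mouse RNA in the tumors would be seen only by cross-hybridisation. In bulk RNA, fewer cells of a type and less RNA per cell cannot be told apart.

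Interferons bind receptors at the cell surface and, through JAK kinases, activate STAT transcription factors, which act with IRF9 on interferon-stimulated response elements in the promoters of antiviral genes. The same signals raise the class I route, in which immunoproteasome subunits cut proteins into peptides, the TAP transporter moves the peptides into the endoplasmic reticulum, and tapasin helps load them onto class I molecules paired with beta-2-microglobulin. In tumor cells this route determines what cytotoxic T cells can see, and many tumors keep a low level of interferon signaling without infection.

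Values are log2 RMA values per probe set, where a difference of 1 is a 2-fold change, and each gene is read from its brightest probe set, by the mean of all 9 arrays. Arrays of a group correlated with each other over all probe sets at 0.995 to 0.998 in the adherent and sphere groups and at 0.99 to 0.993 in the xenografts. The 8 markers of the line were present in every group, with group means from 8.49 for DES to 11.69 for FGFR4, both in xenografts. All 8 nevertheless lay below their adherent level in spheres, and 4 were called lower there: ALK (-1.43), MYOG (-0.91), NCAM1 (-0.39) and DES (-0.38). In xenografts NCAM1 (-0.72), DES (-0.51) and ALK (-0.30) were called lower and MYCN (0.48) and FGFR4 (0.34) higher. Of 9 leukocyte and macrophage markers measured, 7 lay under 5 on all arrays, and the group means of PTPRC, the pan-leukocyte marker, were 2.45 to 2.62. The other 2, AIF1 (0.66, adjusted p = 0.00304) and ITGB2 (0.39, adjusted p = 0.0101), were called higher in xenografts. The mean of this marker list was higher on the xenograft arrays, at 4.58 to 4.72, than on adherent arrays at 4.32 to 4.45. Fibroblast markers stood at 6.78 to 7.25 on xenograft arrays against 6.06 to 6.25 on adherent arrays, with 3 of 6 called higher. These were LUM (2.82), COL3A1 (0.82) and DCN (0.65), while FAP (0.59), THY1 (0.01) and PDGFRA (-0.05) were not called. COL3A1, PDGFRA and ITGB2 were already bright in the adherent line, with means of 9.53, 8.71 and 8.30. In xenografts 1 of 6 endothelial markers, KDR (0.60), and 1 of 5 lymphocyte markers, CD79A (0.40), were also called higher. KDR was dim, with group means of 2.86 to 3.49. In spheres the endothelial marker VWF was called higher (0.73, adjusted p = 0.00967) and ITGB2 lower (-0.33, adjusted p = 0.0184). Of all genes, 12.6% were called higher in xenografts, and 13.5% higher and 16.3% lower in spheres. The part of these marker shifts in the results below was not tested. The ACTB 3′ minus 5′ difference, a sign of RNA integrity or priming, was 3.15 to 3.31 on sphere arrays, 2.07 to 2.67 on adherent arrays and 2.30 to 2.75 on xenograft arrays. The same difference for GAPDH overlapped between the groups, at 0.59 to 0.67, 0.42 to 0.68 and 0.41 to 0.64. The part of the ACTB difference in the sphere results was not tested.

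In spheres, the called members were mainly higher: 13 of 40 members were called higher than in adherent cells, 4 lower and 23 not called. Changes were above 0 for 25 members and below 0 for 15, called or not. The members were chosen with earlier results of these data known, so the counts describe them only. Over all genes, 29.8% were called in this comparison, 13.5% higher and 16.3% lower, against 32.5% higher and 10% lower among the members. The median change of the members was 0.12, beside -0.04 over all genes. All sphere arrays lay above all adherent arrays for 18 members and below them for 5, where 21.1% and 26.6% of all genes separated in those directions. Members past a 2-fold change numbered 4 higher and 2 lower, beside 3.06% and 2.75% of all genes.

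In xenografts, calls went both ways: 8 members were called higher than in adherent cells and 11 lower, or 20% and 27.5%. Of all genes 26.9% were called, 12.6% higher and 14.3% lower. The median change was 0.11, beside 0.083 over all genes. Among the 21 members with a mean of at least 5 the median was -0.017. Without adherent replicate 2, 3 members were called higher. The xenograft arrays separated from the adherent arrays upward for 10 members and downward for 12, beside 24.4% and 19.5% of all genes. At 2-fold or more, 1 member was higher (0.799% of all genes) and 3 were lower (2.48%). When xenografts were set directly against spheres, 6 members were higher and 18 lower, or 15% and 45%, while 44% of all genes were called, 25.7% higher and 18.3% lower. Arrays of these groups were apart upward for 8 members and downward for 18, beside 32.3% and 20.5% of all genes. The median was -0.26 for members and 0.13 for all genes, and it lay at -0.073 without xenografts replicate 1. None of the 40 passed 2-fold upward here (2.7% of all genes) and 4 did so downward (4.87%).

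Many of these genes were dim in Rh30. For 19 of the 40 the mean over all arrays was under 5, close to the median of an array, which was 4.78 to 4.87. In spheres, 5 of these 19 dim members were called higher and 2 lower, whereas 7.08% of all genes with a mean from 4 to 5 were called higher and 5.07% lower, and below 4 the shares were 3% and 2.34%. The 21 brighter members gave 8 higher (38.1%) and 2 lower (9.52%), beside 19% and 24.1% of all genes with a mean of at least 5. In xenografts the brighter members gave 4 higher (19%) and 8 lower (38.1%), beside 14.5% and 21.8% of those genes.

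**Figure D1:**
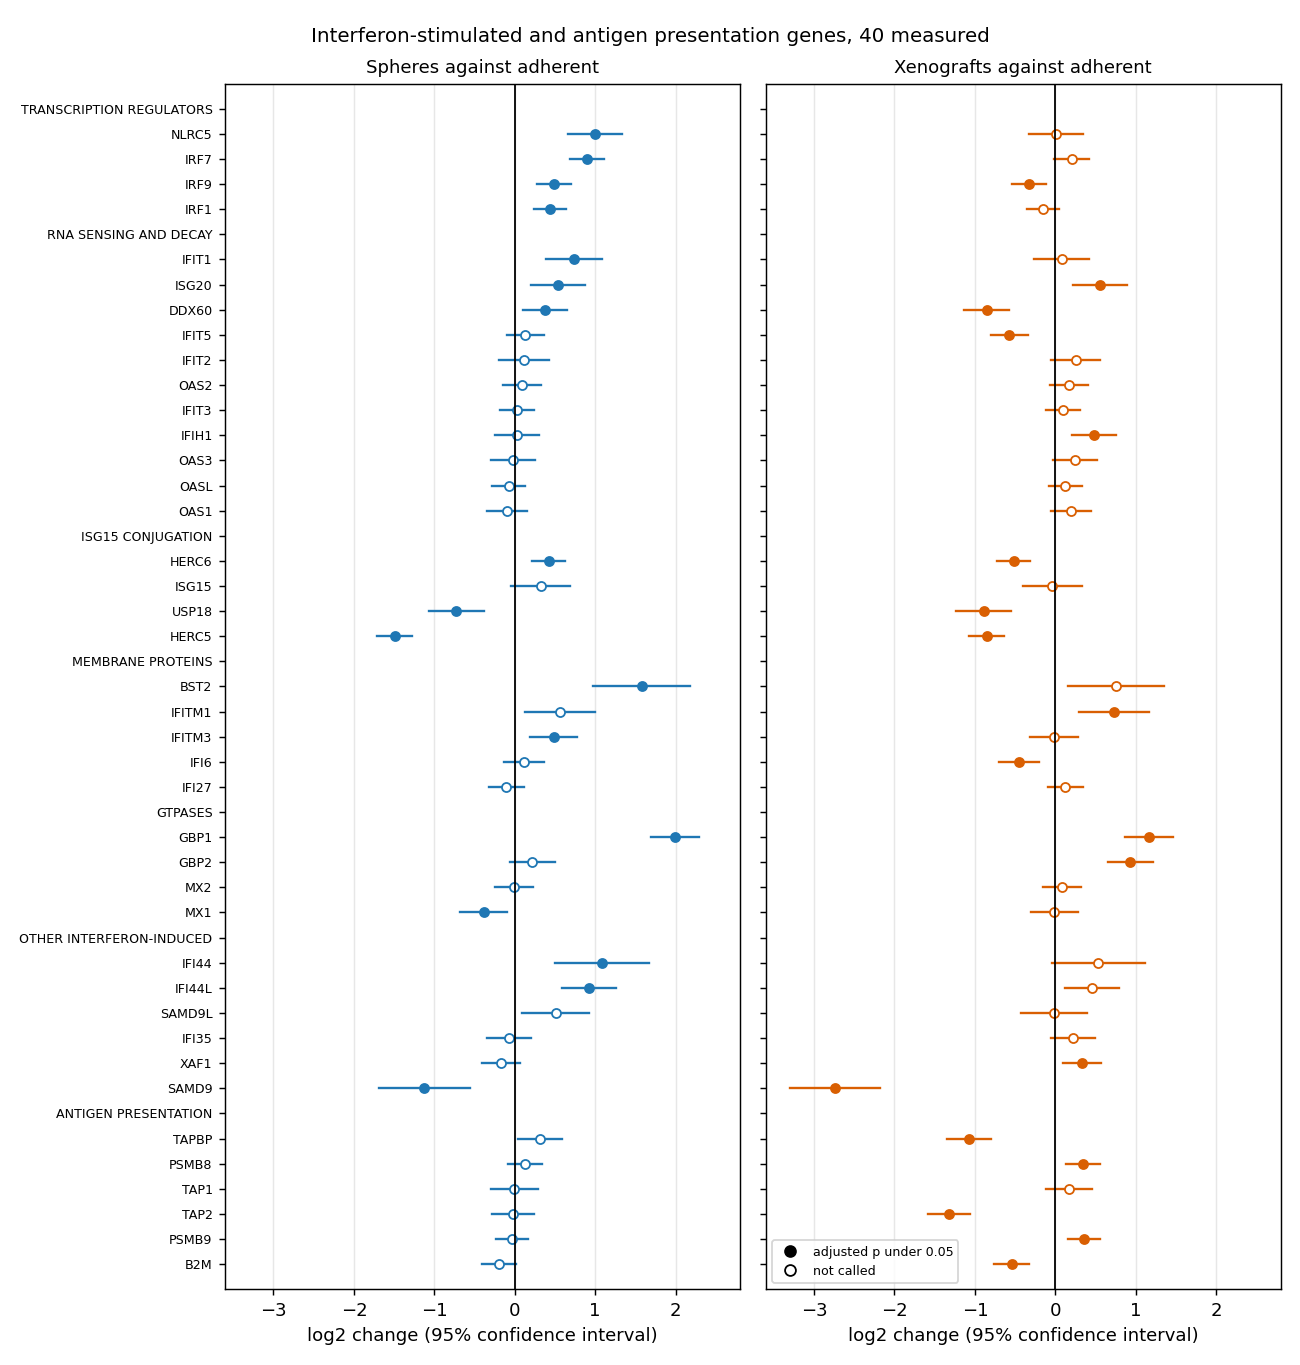
Log2 change of each of the 40 measured genes, by role, in spheres (left) and xenografts (right) against adherent cells; points are limma estimates from 3 arrays a group, bars 95% confidence intervals, and filled points have an adjusted p under 0.05. Filled points are mostly right of 0 in spheres (13 of 17), while in xenografts 11 of 19 lie left of 0, with SAMD9 farthest at -2.74.

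The 9 members with a called change of at least 2-fold in any comparison were NLRC5, DDX60, HERC5, BST2, GBP1, IFI44, SAMD9, TAP2 and TAPBP. To show what the promoters of such genes hold, stretches are printed for the genes with the largest changes and, chosen after their values were seen, for 3 genes of the class I route that were lower in xenografts. The letters come from RefSeq on GRCh38.p14 and run 5′ to 3′ on the strand of the gene. Capitals mark the core of the interferon-stimulated response element, GAAA followed after any 2 bases by GAAA, or its reverse complement, and overlapping matches run together. SAMD9 is shown from chr7:93118061-93118160 on the minus strand. GBP1 is chr1:89065281-89065380, minus strand. BST2 is chr19:17405703-17405802, minus strand. HERC5 is chr4:88456974-88457073, plus strand. TAPBP is chr6:33314079-33314178 and TAP2 chr6:32838743-32838842, both minus strand. B2M is chr15:44711331-44711430, plus strand. HERC6, the gene with the largest change among those without a match, is chr4:88378752-88378851, plus strand.
SAMD9: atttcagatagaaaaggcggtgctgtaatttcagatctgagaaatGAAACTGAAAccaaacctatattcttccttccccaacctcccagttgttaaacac
GBP1: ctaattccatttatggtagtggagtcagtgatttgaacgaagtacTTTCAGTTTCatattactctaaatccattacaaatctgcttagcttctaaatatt
BST2: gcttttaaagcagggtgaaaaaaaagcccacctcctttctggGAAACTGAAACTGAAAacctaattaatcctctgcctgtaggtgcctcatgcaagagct
HERC5: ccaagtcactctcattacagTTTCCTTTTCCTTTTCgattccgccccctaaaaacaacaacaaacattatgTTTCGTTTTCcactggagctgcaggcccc
TAPBP: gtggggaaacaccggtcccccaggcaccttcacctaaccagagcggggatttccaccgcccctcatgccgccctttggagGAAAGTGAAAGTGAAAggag
TAP2: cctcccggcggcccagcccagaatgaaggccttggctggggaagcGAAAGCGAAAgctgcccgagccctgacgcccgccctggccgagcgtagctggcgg
B2M: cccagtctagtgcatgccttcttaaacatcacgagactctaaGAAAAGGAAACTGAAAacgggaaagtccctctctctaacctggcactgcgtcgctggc
HERC6: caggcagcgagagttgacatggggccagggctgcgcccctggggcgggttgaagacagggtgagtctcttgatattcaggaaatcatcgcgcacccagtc

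Promoters of 250 bases before to 50 bases after the gene start were found for 33 of the 41 members, with 41 promoters between them. GBP2, IFIT2, OASL, USP18, NLRC5, IRF7, OAS2 and MX2 had no entry. The response element core, read on both strands with overlapping matches counted, was present in 24 of the 33 genes (72.7%), beside 4.38% of all 27305 genes with a promoter. TTCNNNGAA, the core of the gamma-activated site, was present in 11 of the 33 (33.3%), beside 9.38%. It was searched separately, and its matches may share bases with the other motif. Members with the match were called in both directions. Of the 24 measured members with the core, 8 were higher and 3 lower in spheres, and 5 higher and 8 lower in xenografts. Of the 8 measured members without it, 3 were higher and none lower in spheres, and 2 were higher and 2 lower in xenografts. The shares over all genes were 13.5% higher and 16.3% lower in spheres, and 12.6% and 14.3% in xenografts. SAMD9 and BST2, which moved in opposite directions in spheres, both hold it, as printed above.

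All 4 transcription regulators measured were called higher in spheres, and all 4 were lower in xenografts than in spheres. Of all genes, 13.5% were higher in spheres and 18.3% lower in xenografts than in spheres. NLRC5 was among the dim members, with a mean of 4.72 over all arrays. NLRC5, the transactivator of class I genes, read 4.52, 4.60 and 4.03 on the adherent arrays, 5.43, 5.22 and 5.50 on the sphere arrays and 4.60, 4.32 and 4.27 on the xenograft arrays. The sphere arrays lay above all others, and adherent and xenograft arrays overlapped. NLRC5 was 2.00-fold higher in spheres (log2 change 1.00 ± 0.15 SE, adjusted p = 0.000416) and 0.01 ± 0.15 in xenografts (adjusted p = 0.965).

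IRF7, which drives type I interferon induction, was at 6.05, 6.09 and 6.23 in adherent cells, 6.86, 7.07 and 7.13 in spheres and 6.27, 6.35 and 6.35 in xenografts. It rose by 0.90 ± 0.10 in spheres (adjusted p = 3.87e-05). Each xenograft array was above each adherent array, but the change of 0.20 ± 0.10 was not called (adjusted p = 0.163). IRF9, a DNA-binding factor of the type I interferon response, gave 7.52, 7.34 and 7.49 in adherent cells, 8.00, 7.83 and 7.99 in spheres and 7.19, 7.14 and 7.04 in xenografts, so the 3 groups were fully apart. It rose by 0.49 ± 0.10 in spheres (adjusted p = 0.00222). In xenografts it was -0.32 ± 0.10 from adherent cells (adjusted p = 0.031). This call was lost without adherent replicate 1 or 3 or xenografts replicate 2 or 3 (adjusted p 0.0555 to 0.104) and after quantile normalization (-0.16, adjusted p = 0.297).

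IRF1, a factor of the interferon gamma response, was at 6.54, 6.49 and 6.48 in adherent cells, 6.82, 6.98 and 7.04 in spheres and 6.40, 6.32 and 6.34 in xenografts. It was higher in spheres by 0.44 ± 0.09 (adjusted p = 0.00304). Xenograft arrays lay just below the adherent ones without a call (-0.15, adjusted p = 0.254). From spheres to xenografts the changes of the 4 regulators ran from -0.59 for IRF1 (adjusted p = 0.000331) to -0.99 for NLRC5 (adjusted p = 0.000359). A dimmer IRF1 probe set, 238725_at, was not called in any comparison, and the mean over both IRF1 probe sets was 0.15 in spheres (adjusted p = 0.14).

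Of the 11 genes that sense or degrade foreign RNA, 3 were higher and none lower in spheres, and 2 were higher and 2 lower in xenografts. The shares called, 27.3% and 36.4%, stood beside 29.8% and 26.9% of all genes. DDX60, an RNA helicase that aids RIG-I-like sensors, stood at 4.71, 4.73 and 4.73 in adherent cells, 4.90, 5.12 and 5.28 in spheres and 3.68, 3.83 and 4.10 in xenografts. All 3 groups were apart, with spheres highest and xenografts lowest. DDX60 was 2.35-fold lower in xenografts than in spheres (-1.23 ± 0.13, adjusted p = 1.75e-05) and 1.81-fold lower than in adherent cells (-0.85 ± 0.13, adjusted p = 0.000607). Its rise in spheres, 0.38 ± 0.13 (adjusted p = 0.0458), was not called after quantile normalization (0.33, adjusted p = 0.0803), after median centring (0.34, adjusted p = 0.0693), or without any 1 of adherent replicates 1 to 3, spheres replicates 2 and 3 and xenografts replicate 2 (adjusted p 0.0565 to 0.189).

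IFIT1, which binds viral RNA that lacks a host cap, rose by 0.73 in spheres (adjusted p = 0.00444) and was lower in xenografts than in spheres (-0.65, adjusted p = 0.00688). IFIT1 was dim, at 2.58 to 2.70 in adherent cells, 3.15 to 3.68 in spheres and 2.52 to 3.02 in xenografts. Only spheres replicate 3 lay above the lower quartile of its array. Both calls were lost by the methods' t-test after Benjamini-Hochberg adjustment (adjusted p = 0.0524 and 0.129). IFIT5, a related RNA-binding protein, fell by 0.57 in xenografts (adjusted p = 0.00245), and both of its probe sets were called lower. ISG20, an RNA exonuclease, was higher in spheres by 0.54 (adjusted p = 0.0219) and in xenografts by 0.56 (adjusted p = 0.0216), with its other probe set at 0.94 and 0.77. At the brighter ISG20 probe set the call in spheres was lost without adherent replicate 2 or spheres replicate 1 or 3 (adjusted p 0.055 to 0.078), and that in xenografts without adherent or xenografts replicate 2 (adjusted p 0.0665 to 0.0675). IFIH1, the sensor MDA5, was higher in xenografts by 0.48 (adjusted p = 0.017), but this was lost without adherent or xenografts replicate 2 (adjusted p 0.0579 to 0.0781), and its other probe sets gave 0.07 and 0.03 (mean of all 3, 0.19, adjusted p = 0.107). IFIH1 lay under the lower quartile on every array, at 2.05 to 2.84. The 4 OAS genes, whose products activate RNase L, were not called in any comparison with all arrays, with changes against adherent cells from -0.10 for OAS1 in spheres to 0.25 for OAS3 in xenografts.

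The ubiquitin-like protein ISG15 was called in no comparison with all arrays (0.32 in spheres, adjusted p = 0.213), whereas the 3 genes listed with it, whose products attach or remove such proteins, were called in both spheres and xenografts. The list thus had 75% called in each, beside 29.8% and 26.9% of all genes. HERC5, the ligase that joins ISG15 to new proteins, read 9.88, 9.84 and 9.96 in adherent cells, 8.49, 8.30 and 8.41 in spheres and 9.07, 9.16 and 8.88 in xenografts. The groups did not overlap, and adherent cells were highest. HERC5 was 2.82-fold lower in spheres (-1.49 ± 0.10, adjusted p = 1.19e-06) and 1.81-fold lower in xenografts (-0.86 ± 0.10, adjusted p = 0.000138). USP18, which removes ISG15 and restrains the interferon receptor, fell by 0.73 in spheres (adjusted p = 0.00447) and by 0.89 in xenografts (adjusted p = 0.00186). HERC6, a relative of HERC5, went the other way in spheres, up by 0.43 (adjusted p = 0.00487), and fell by 0.52 in xenografts (adjusted p = 0.00215). HERC6 was dim, with a mean of 4.17 over all arrays. Its second probe set was flat, and the mean of both was 0.21 in spheres (adjusted p = 0.0513).

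Membrane proteins of the response included the second largest rise in spheres. BST2, or tetherin, which holds budding virus at the cell surface, was at 5.95, 6.09 and 6.06 in adherent cells, 7.66, 7.49 and 7.69 in spheres and 5.94, 7.04 and 7.40 in xenografts. The spheres were above all other arrays, and xenografts replicate 1 was at the adherent level while the other xenograft arrays lay above it. BST2 was 2.98-fold higher in spheres (1.58 ± 0.27, adjusted p = 0.00106), a call that held under all 21 alternatives. The xenograft change of 0.75 ± 0.27 was not called (adjusted p = 0.0694). Without xenografts replicate 1 it was 1.18 (adjusted p = 0.00011). Between xenografts and spheres the change was -0.82 (adjusted p = 0.0338), lost after quantile normalization (-0.68, adjusted p = 0.0768) and without spheres replicate 1, 2 or 3 (adjusted p 0.0604 to 0.0939).

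IFITM3, which blocks virus entry, was higher in spheres by 0.49 (adjusted p = 0.0183), lost without adherent replicate 2 or spheres replicate 3 (adjusted p 0.0596 to 0.0859). Its relative IFITM1 was higher in xenografts by 0.73 (adjusted p = 0.0209), lost without adherent replicate 2 or xenografts replicate 2 or 3 (adjusted p 0.0592 to 0.0926), and at 0.56 in spheres it was not called (adjusted p = 0.0596), though it was called without xenografts replicate 1 (adjusted p = 0.00761) or 3 (adjusted p = 0.0227). IFITM genes are near copies of each other and their probe sets may share signal. IFI6, an anti-apoptotic protein, fell by 0.45 in xenografts (adjusted p = 0.0151), lost without adherent replicate 3 or xenografts replicate 2 (adjusted p 0.0507 to 0.0643). IFI27 was called in no comparison.

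Among the interferon-induced GTPases, GBP1 had the largest rise of the whole set. GBP1, which coats intracellular pathogens, was at 4.69, 4.15 and 4.47 in adherent cells, 6.28, 6.39 and 6.63 in spheres and 5.65, 5.61 and 5.55 in xenografts. No array of 1 group reached another group. The rise was 3.99-fold in spheres (2.00 ± 0.14, adjusted p = 1.31e-06) and 2.24-fold in xenografts (1.16 ± 0.14, adjusted p = 0.000138). In xenografts GBP1 was 1.78-fold lower than in spheres (-0.83 ± 0.14, adjusted p = 0.000574). Of its 4 probe sets, 3 were called higher in both groups, by 1.80 to 2.00 in spheres and 1.06 to 1.45 in xenografts, and the dimmest, 231578_at, was not called.

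GBP2, a relative of GBP1, was higher in xenografts by 0.93 (adjusted p = 0.000375), with its other probe set at 0.99, and not called in spheres (0.22, adjusted p = 0.265). From spheres to xenografts GBP2 rose by 0.71 (adjusted p = 0.00105). MX1, an antiviral dynamin-like GTPase, was -0.39 in spheres (adjusted p = 0.0497), a call that was lost with the replicate number as a block (adjusted p = 0.0803) and without any 1 of adherent replicates 1 to 3, spheres replicates 1 and 2 and xenografts replicates 1 and 2 (adjusted p 0.0526 to 0.195). MX2 was not called in any comparison.

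**Figure D2:**
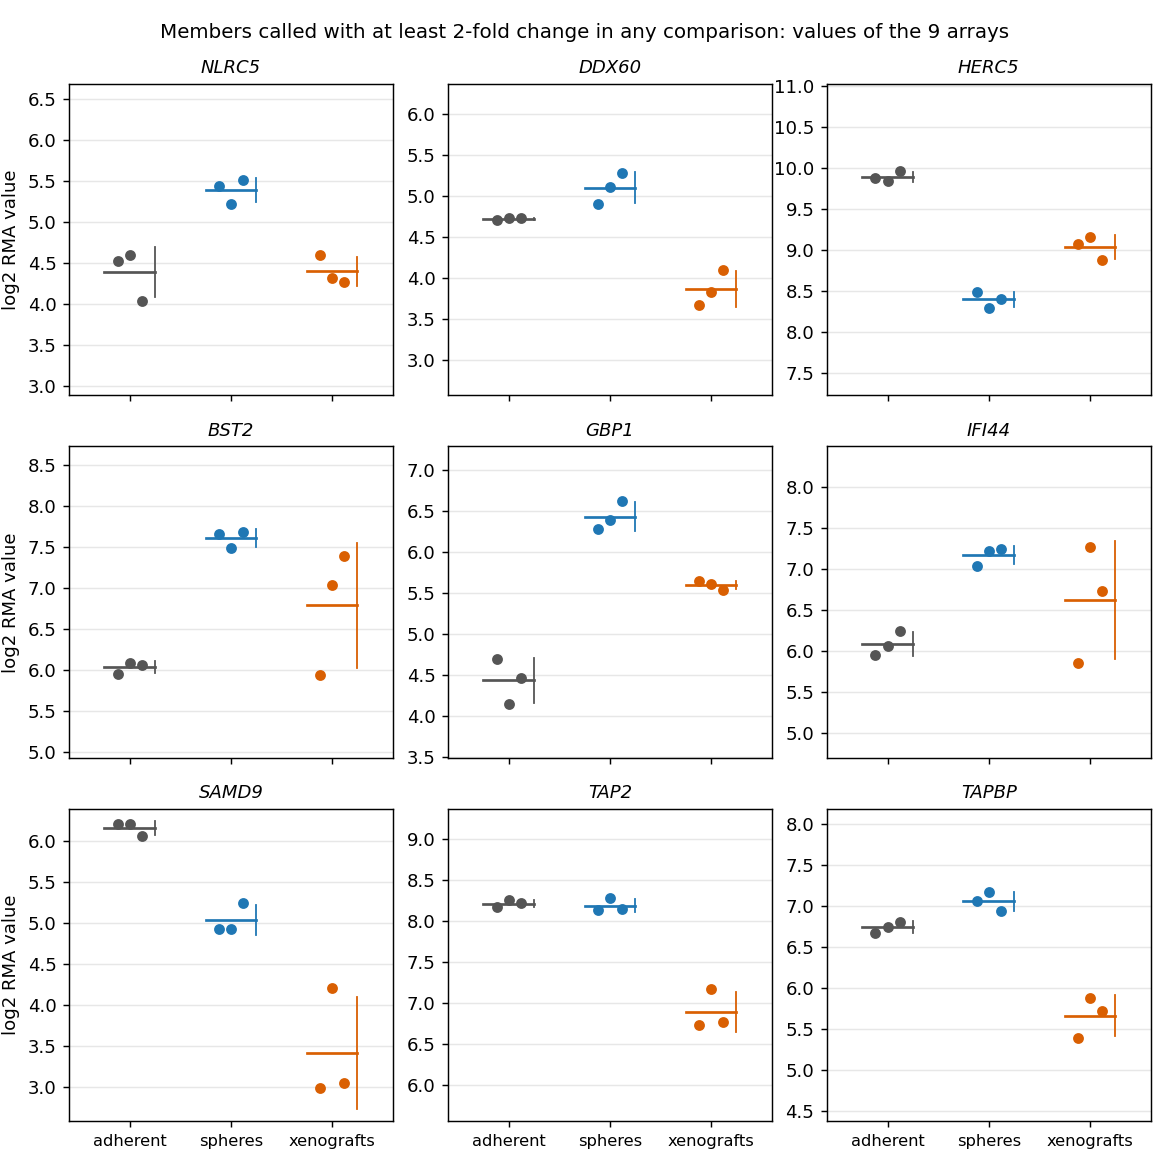
Log2 RMA value of each of the 9 arrays for the 9 members with a called change of at least 2-fold; points are arrays, horizontal lines group means and vertical lines the SD of 3 arrays, and each panel has its own range of values. GBP1, BST2, IFI44 and NLRC5 were highest in spheres, HERC5 and SAMD9 in adherent cells, and TAP2 and TAPBP lowest in xenografts, while BST2 and IFI44 in xenografts spread widely.

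The other interferon-induced genes included SAMD9. SAMD9, which restrains poxviruses and cell growth, was at 6.20, 6.21 and 6.06 in adherent cells, 4.93, 4.92 and 5.25 in spheres and 2.98, 4.21 and 3.05 in xenografts. The groups were fully apart, in the order adherent, spheres, xenografts, and xenografts replicate 2 stood above the other 2 tumors. SAMD9 was 2.18-fold lower in spheres (-1.12 ± 0.26, adjusted p = 0.00625) and also lower in xenografts (-2.74 ± 0.26, adjusted p = 2.89e-05). Xenografts replicates 1 and 3 lay under the lower quartile of the xenograft arrays, 3.36 to 3.39, in the range of genes with little or no signal, so no fold is given for the xenografts. At the dimmer probe set 219691_at the sphere change was -0.09 (adjusted p = 0.721) and the xenograft change -0.58 (adjusted p = 0.00859). Its neighbor and relative SAMD9L was at 0.51 in spheres (adjusted p = 0.0711, called without spheres replicate 3 at 0.70, adjusted p = 0.0184) and -0.01 in xenografts.

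IFI44 read 5.95, 6.07 and 6.24 in adherent cells, 7.05, 7.23 and 7.24 in spheres and 5.86, 7.28 and 6.74 in xenografts. Spheres were above adherent cells on every array, whereas the xenograft arrays spanned both groups, with replicate 1 lowest as for BST2. IFI44 was 2.12-fold higher in spheres (1.08 ± 0.26, adjusted p = 0.00939). The xenograft change of 0.53 ± 0.26 was not called (adjusted p = 0.168) but was 0.92 without xenografts replicate 1 (adjusted p = 0.00203). Against spheres, IFI44 in xenografts was -0.55 (adjusted p = 0.12), and -0.88 without xenografts replicate 2 (adjusted p = 0.00909). IFI44L, its neighbor on the chromosome, was higher in spheres by 0.92 (adjusted p = 0.000745). IFI44L was among the dim members, and this call was lost by the methods' t-test after Benjamini-Hochberg adjustment (adjusted p = 0.0567). In xenografts the 0.45 of IFI44L was not called (adjusted p = 0.0523) but was without adherent replicate 2, spheres replicate 1 or spheres replicate 3 (adjusted p 0.0202, 0.0446 and 0.0409). XAF1, an inhibitor of the apoptosis blocker XIAP, was higher in xenografts by 0.33 (adjusted p = 0.0459), which was lost after quantile normalization (0.23, adjusted p = 0.132), after median centring (0.28, adjusted p = 0.073) and without any 1 of adherent replicates 1 to 3, spheres replicate 2 and xenografts replicates 2 and 3 (adjusted p 0.0591 to 0.13). IFI35 was not called with all arrays.

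Among the antigen presentation members, limma called 0 of 6 in spheres (1 higher at an unadjusted p under 0.05, and 1 higher and 1 lower by the methods' t-test without adjustment), while 2 were higher and 3 lower in xenografts. In xenografts these were 33.3% and 50%, beside 12.6% and 14.3% of all genes. In spheres 29.8% of all genes were called. TAP2, a subunit of the peptide transporter, was at 8.17, 8.25 and 8.21 in adherent cells, 8.13, 8.28 and 8.15 in spheres and 6.73, 7.17 and 6.77 in xenografts. All xenograft arrays were below all others, and spheres and adherent cells overlapped. TAP2 was 2.50-fold lower in xenografts (-1.32 ± 0.12, adjusted p = 2.16e-05) and differed by -0.02 ± 0.12 in spheres (adjusted p = 0.93). TAP1, its partner, was at 5.32, 5.67 and 5.50 in adherent cells, 5.60, 5.39 and 5.50 in spheres and 5.83, 5.40 and 5.78 in xenografts. The groups overlapped and TAP1 was called in no comparison (0.17 ± 0.13 in xenografts, 95% interval -0.12 to 0.46, adjusted p = 0.377).

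TAPBP, or tapasin, gave 6.67, 6.75 and 6.81 in adherent cells, 7.06, 7.17 and 6.95 in spheres and 5.39, 5.88 and 5.72 in xenografts. Xenografts were lowest on all arrays, and the sphere arrays lay just above the adherent ones. TAPBP was 2.11-fold lower in xenografts (-1.08 ± 0.12, adjusted p = 0.000123), and the 0.32 ± 0.12 in spheres was not called (adjusted p = 0.0902), though it was without xenografts replicate 1 (adjusted p = 0.0276). B2M, the light chain of every class I molecule, was at 12.66, 12.74 and 12.64 in adherent cells, 12.37, 12.56 and 12.53 in spheres and 12.01, 12.27 and 12.13 in xenografts. The groups were apart in that order. B2M fell by 0.54 in xenografts (-0.54 ± 0.10, adjusted p = 0.00229), and the sphere value of -0.20 ± 0.10 was not called (adjusted p = 0.194). Its change from spheres to xenografts, -0.35 (adjusted p = 0.0162), was lost without spheres replicate 2 or 3 (adjusted p 0.0597 to 0.0602).

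Both immunoproteasome subunits were dim. PSMB8 was at 3.26, 3.07 and 3.05 in adherent cells, 3.26, 3.26 and 3.24 in spheres and 3.59, 3.46 and 3.37 in xenografts. Xenografts lay above the rest, by 0.35 ± 0.10 over adherent cells (adjusted p = 0.0229), but this was lost after quantile normalization (0.25, adjusted p = 0.0896) and without adherent replicate 2 or 3 or xenografts replicate 1 (adjusted p 0.0536 to 0.0928). PSMB9 was at 3.31, 3.27 and 3.39 in adherent cells, 3.16, 3.31 and 3.39 in spheres and 3.66, 3.72 and 3.68 in xenografts. The xenograft arrays were again the highest, by 0.36 ± 0.09 (adjusted p = 0.0147), lost after quantile normalization (0.26, adjusted p = 0.0644) and without adherent replicate 2 (adjusted p = 0.0614). The median of all genes itself stood 0.08 higher in xenografts, and among all genes with a mean under 4 it stood 0.13 higher.

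**Figure D3:**
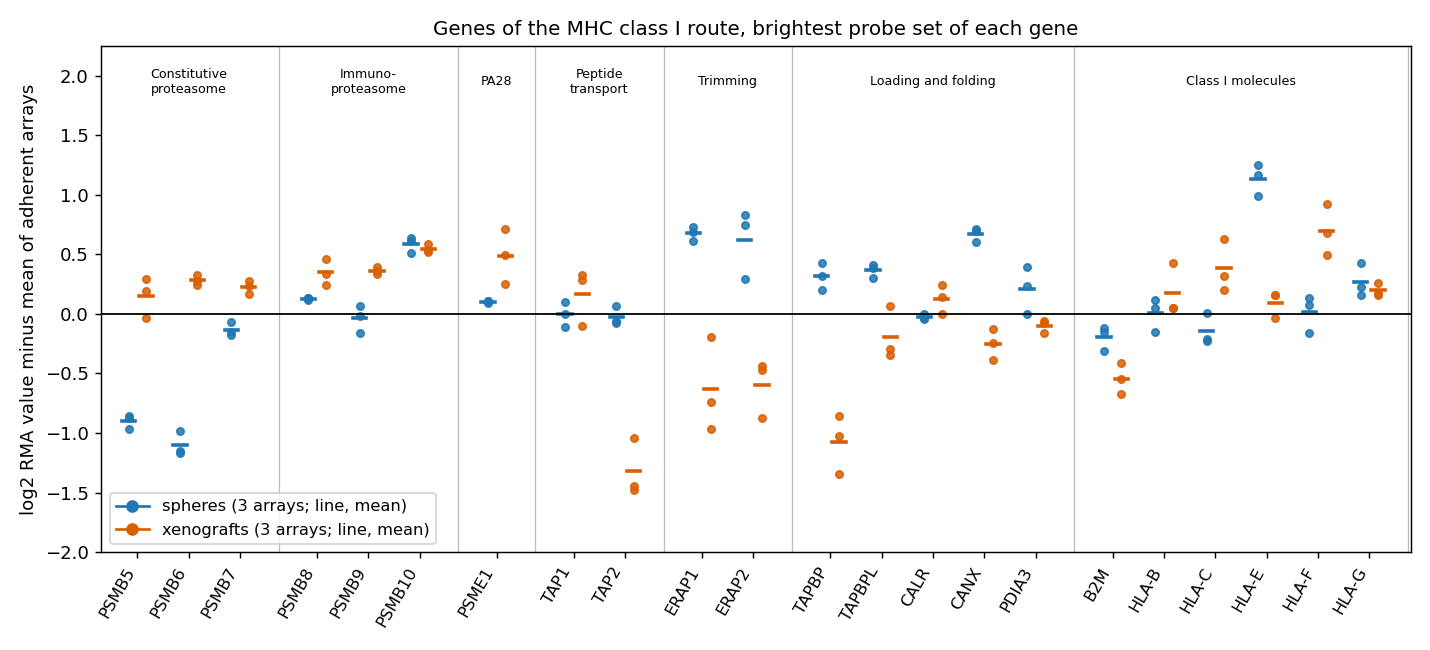
Log2 value of each sphere and xenograft array minus the mean of the adherent arrays for genes of the MHC class I route, ordered by step; points are arrays and short lines means of 3 arrays. In xenografts TAP2 and TAPBP lie lowest at -1.32 and -1.08, and in spheres PSMB6 and PSMB5 lie at -1.10 and -0.90 while HLA-E lies at 1.14.

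Other genes of the class I route were called in spheres. Of 8 further processing genes, 5 were higher in spheres (62.5%, beside 13.5% of all genes) and none lower, and 3 were higher without adherent replicate 1 or 3 or spheres replicate 2 or 3. The largest changes were those of ERAP1 (0.68, adjusted p = 0.00796), which trims peptides, and CANX (0.67, adjusted p = 0.000213), a chaperone of new class I chains. ERAP2 was at 0.62 (adjusted p = 0.0216), lost without adherent replicate 1 or 3 or spheres replicate 2 or 3 (adjusted p 0.0776 to 0.0976), and PSMB10, the remaining immunoproteasome subunit, was at 0.59 (adjusted p = 0.000249). TAPBPL, a relative of tapasin, was at 0.37 (adjusted p = 0.0408), lost without any 1 of the adherent and sphere arrays (adjusted p 0.0681 to 0.159). Of the 3 constitutive subunits that immunoproteasome subunits replace, 2 fell in spheres (66.7%, beside 16.3% of all genes), with PSMB6 at -1.10 (adjusted p = 4.07e-06) and PSMB5 at -0.90 (adjusted p = 4.49e-05).

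Of 5 class I genes measured, HLA-E, whose product presents leader peptides to natural killer cells, was called higher in spheres (1.14, adjusted p = 1.55e-05), and the other 4 were not, with HLA-B at 0.01 and HLA-C at -0.14. Called higher were 20% of the 5 in spheres and 40% in xenografts, beside 13.5% and 12.6% of all genes. In xenografts HLA-F was higher by 0.70 (adjusted p = 0.00403), and HLA-E was not called (0.09, adjusted p = 0.566). HLA-C was higher by 0.38 (adjusted p = 0.0457), lost without any 1 of adherent replicates 1 to 3, spheres replicates 2 and 3 and xenografts replicates 2 and 3 (adjusted p 0.0554 to 0.154). HLA genes are near copies, and their probe sets may share signal. In the processing list, xenografts gave 2 higher and 2 lower (25% each, beside 12.6% and 14.3% of all genes), with PSMB10 at 0.55 (adjusted p = 0.000756). ERAP1 was at -0.63 (adjusted p = 0.0155), lost without adherent replicate 1 or 2 (adjusted p 0.0509 to 0.0563), and without adherent replicate 2 limma called none of this list lower. From spheres to xenografts ERAP1 changed by -1.31 (adjusted p = 6.95e-05), ERAP2 by -1.22 (adjusted p = 0.000243) and HLA-E by -1.04 (adjusted p = 2.21e-05). Of 10 class II genes, 0 were called in spheres by limma (1 lower at an unadjusted p under 0.05, and 0 by the methods' t-test), and in xenografts 1 was, the class II transactivator CIITA (0.40, adjusted p = 0.0307), lost without adherent replicate 1, 2 or 3 or xenografts replicate 2 (adjusted p 0.0719 to 0.0969). CIITA made up 10% of the list, where 12.6% of all genes were higher in xenografts. In spheres 29.8% of all genes were called.

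Probe sets of the same gene did not always agree. Counted one by one, 20 of the 70 member probe sets were higher and 5 lower in spheres, 13 higher and 18 lower in xenografts, and 8 higher and 26 lower in xenografts against spheres, beside 13.3% and 12.6%, 9.78% and 13.2%, and 20.6% and 18.5% of all probe sets. IFIT3 was flat at its brightest probe set, 204747_at (0.03 in spheres, 0.10 in xenografts), whereas the dimmer 229450_at rose by 0.78 in spheres (adjusted p = 0.000414) and fell by 0.73 in xenografts (adjusted p = 0.00111). IFIT2 showed the same division, with 217502_at not called and 226757_at at 0.71 (adjusted p = 0.000409) and -0.35 (adjusted p = 0.0368). In TAPBP, 208829_at was -1.08 in xenografts while 1555565_s_at was called higher at 0.29 (adjusted p = 0.0382), and the mean over its 3 probe sets was -0.22 (adjusted p = 0.0699). In TAP2, 225973_at and 204770_at were called lower in xenografts, at -1.32 and -0.50, and 204769_s_at and 208428_at were not called, at -0.20 and 0.36. The dim 204770_at was also lower in spheres, at -0.38 (adjusted p = 0.0266). The bright B2M probe sets both fell in xenografts, by 0.54 and 0.59, and the dim 232311_at was also lower, at -0.73 (adjusted p = 0.0484), but was higher in spheres, at 0.85 (adjusted p = 0.0203). The dimmer IFI44 probe set, 214059_at, was called higher in spheres (0.44, adjusted p = 0.0296).

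**Figure D4:**
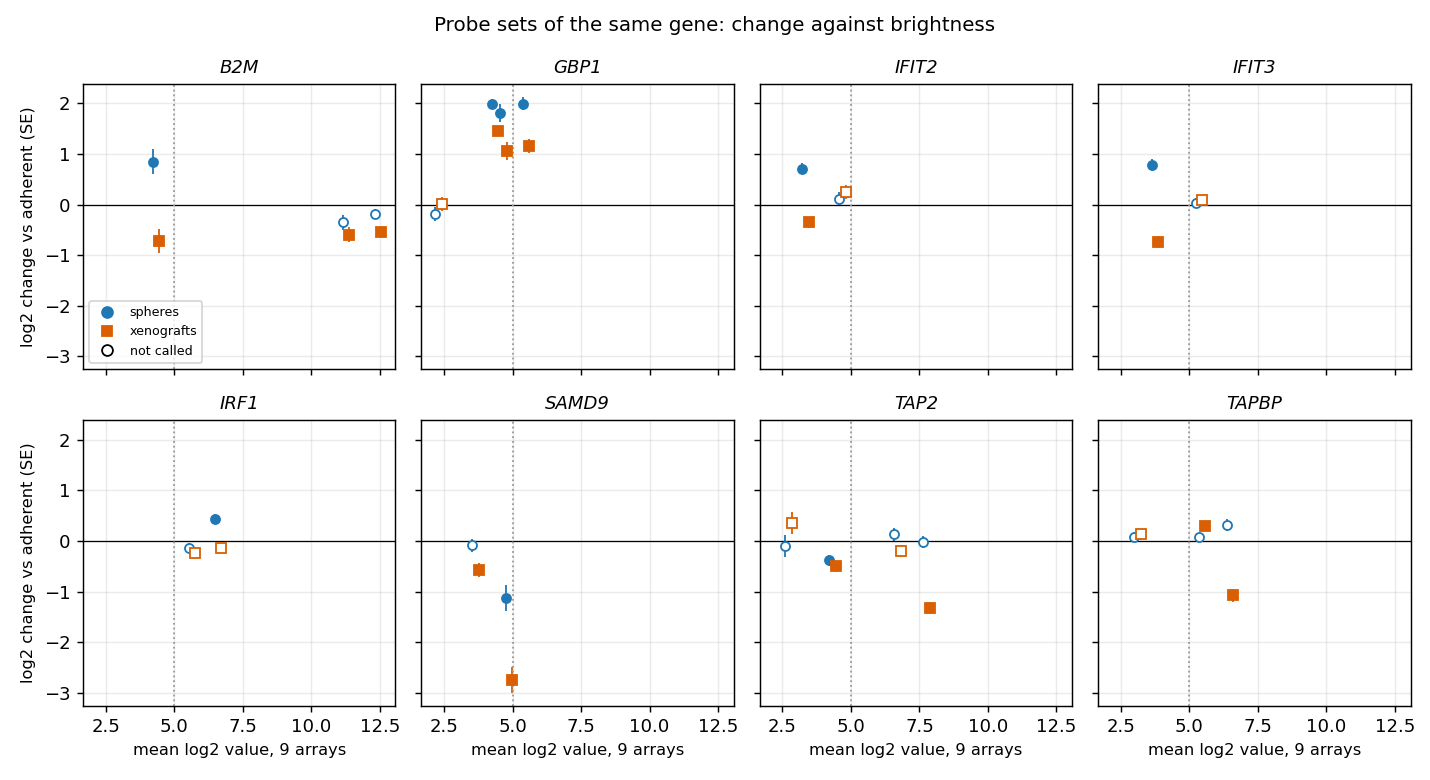
Log2 change against adherent cells (vertical, with SE) by mean log2 value over the 9 arrays (horizontal) for every probe set of 8 members whose probe sets differ in call; filled symbols have an adjusted p under 0.05, sphere and xenograft symbols are shifted slightly left and right of the mean, and the dotted line marks a mean of 5. For TAPBP the brightest probe set lies at -1.08 in xenografts and another at 0.29, and for IFIT3 the probe set under 5 moves apart from the brighter one.

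Genes upstream of the response were followed as lists. Of the 97 pathway genes measured, 57 had a mean of at least 5. Over all 97 pathway genes measured, 15.5% were higher and 7.22% lower in spheres, beside 13.5% and 16.3% of all genes, and 11.3% and 18.6% in xenografts, beside 12.6% and 14.3%. Of the 18 interferon genes measured, in spheres 0 were higher by limma (1 at an unadjusted p under 0.05, 0 by the methods' t-test) and 1 was lower (IFNA10, -0.39, adjusted p = 0.0434, lost without adherent replicate 2 or 3 or spheres replicate 1, 2 or 3, adjusted p 0.0683 to 0.163). That was 5.56% lower, beside 16.3% of all genes. In xenografts 2 were higher, IFNA17 by 0.63 (adjusted p = 0.00846) and IFNB1 by 0.49 (adjusted p = 0.00343). These 2 were 11.1% of the list, no more than the 12.6% of all genes called higher. The median change of the 18 interferon genes in xenografts was 0.18. Over all genes it was 0.13 below a mean of 4 and 0.18 for means from 4 to 5. Interferon alpha genes are near copies of each other. Among 12 receptor and JAK-STAT genes, 4 were higher (33.3%, beside 13.5% of all genes) and 1 lower (8.33%, beside 16.3%) in spheres. SOCS3, a feedback inhibitor of JAK kinases, fell by 1.86 in spheres (adjusted p = 7.7e-05) and by 2.13 in xenografts (adjusted p = 6.37e-05). IFNGR1, the ligand-binding interferon gamma receptor chain, was higher in spheres by 0.83 (adjusted p = 0.000122), and so was IL10RB, a chain of the lambda interferon receptor, by 0.79 (adjusted p = 0.000377). JAK2 was higher in spheres by 0.70 (adjusted p = 0.000561) and lower in xenografts than in spheres (-1.07, adjusted p = 1.89e-05). The kinase JAK1 was at 0.28 in spheres (adjusted p = 0.0454), lost without adherent replicate 1, 2 or 3, spheres replicate 1 or 3 or xenografts replicate 2 (adjusted p 0.0509 to 0.151). In xenografts 1 of the 12 was higher (8.33%, beside 12.6% of all genes) and 4 were lower (33.3%, beside 14.3%) than in adherent cells, with JAK1 at -0.56 (adjusted p = 0.00115). The higher gene was SOCS1, a relative of SOCS3 (0.30, adjusted p = 0.0348), lost without any 1 of adherent replicates 1 to 3 and xenografts replicates 2 and 3 (adjusted p 0.0528 to 0.126).

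Of 16 sensors and adaptors, 2 were higher (12.5%) and 1 lower (6.25%) in spheres, beside 13.5% and 16.3% of all genes. In xenografts 6 were lower (37.5%, beside 14.3% of all genes) and 0 higher by limma, with 0 higher also at an unadjusted p under 0.05 and by the methods' t-test. The 6 became 3 without adherent replicate 1, 2 or 3, spheres replicate 2 or 3, or xenografts replicate 2 or 3. The DNA sensor CGAS fell by 1.01 in spheres (adjusted p = 0.000548), and the DNA sensor IFI16 rose by 0.62 (adjusted p = 0.00559). ADAR, which edits double-stranded RNA, fell by 0.84 in xenografts (adjusted p = 5.44e-05), and TRIM25, a ligase that activates RIG-I, fell by 0.58 (adjusted p = 0.000873). The xenograft calls of CGAS (-0.49, adjusted p = 0.0459), EIF2AK2, the kinase PKR (-0.50, adjusted p = 0.0477), and TBK1, a kinase that activates IRF3 (-0.29, adjusted p = 0.0431), were each lost without any 1 of at least 6 arrays (adjusted p 0.0559 to 0.155, 0.0587 to 0.158 and 0.054 to 0.14). MAVS, the adaptor of the RNA sensors, was at -0.42 (adjusted p = 0.0109), lost without adherent replicate 1 (adjusted p = 0.0501). RIGI itself was not called in any comparison.

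Of 25 further interferon-stimulated genes, 3 were higher (12%) and 2 lower (8%) in spheres, beside 13.5% and 16.3% of all genes. In xenografts 2 were higher (8%) and 6 lower (24%), beside 12.6% and 14.3%, and 3 were lower without adherent replicate 1 or 3. In spheres 1 was lower without adherent replicate 1 or spheres replicate 2, and in xenografts 1 was higher without adherent replicate 2 or xenografts replicate 2 or 3. TRIM22, an antiviral ligase, was higher in spheres by 1.23 (adjusted p = 0.000394), and SAMHD1, which depletes nucleotides, fell by 1.14 (adjusted p = 3.1e-06). PLSCR1, a scramblase, was higher in spheres by 0.82 (adjusted p = 3.66e-05) at its brightest probe set, but at -0.06 (adjusted p = 0.761) at the brightest one left when probe sets named _x_at or _s_at, which can bind related transcripts, were set aside. In xenografts SP100, a nuclear body protein, fell by 1.16 (adjusted p = 0.000487) and LGALS3BP, a secreted glycoprotein, by 1.00 (adjusted p = 0.00145). From spheres to xenografts, 3 of the 25 were higher (12%) and 9 lower (36%), beside 25.7% and 18.3% of all genes, led by SP100 (-1.52, adjusted p = 2.77e-05) and TRIM22 (-1.34, adjusted p = 0.000168). RSAD2, CXCL10 and CXCL11, genes strongly induced by interferon, were not called in any comparison.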

How the data were processed

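RNA from 9 samples, 3 per group, was hybridised to Affymetrix U133 Plus 2.0 arrays, 1 sample an array. The deposited values are log2 values per probe set, made by the authors with RMA, which subtracts background, equalises the distributions and combines the probes of each set. The program used for RMA and its version are not given in the sources used here. After 62 control probe sets were set aside, 54613 remained. They were modelled in R 4.3.3 using limma 3.58.1 (functions lmFit and eBayes) on all 9 arrays, with a coefficient for each group and 6 residual degrees of freedom. P-values were adjusted by Benjamini-Hochberg across those 54613, with calls made at an adjusted p under 0.05. Changes are given with SE, intervals at 95%.

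By the array annotation, 41091 probe sets had 1 gene symbol, 1801 several and 11721 none, and those with 1 were used. Every member is accounted for. Values on every array are given for members called with a change of at least 2-fold in any comparison, the antigen presentation members and the transcription regulators, and up to 4 called genes are named per pathway list, beside some whose call ended without 1 array, added after their values were seen. The members and lists were chosen with earlier results of these data known, so counts and medians describe them and no list was tested. Promoters came from RefSeq on GRCh38.p14.

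Alternatives were quantile normalization, median centring, a filter at a mean of 5, the compared groups only, a 2-fold threshold, array weights, a robust fit with a variance trend, the methods' t-test adjusted or not, a block on the replicate number, the mean of all probe sets, no _x_at or _s_at probe sets, and each array left out. For the pathway lists these were added after seeing the data. Samples of a group are separate samples by their labels, and the number of arrays limits the precision. In the main fit, the variance of a probe set was pooled over all 3 groups and adjusted by eBayes using all probe sets. A p-value for 2 groups therefore also reflects the spread within the other group. The SD of BST2 was 0.76 among the xenograft arrays but 0.07 among adherent and 0.11 among sphere arrays. Leaving out a xenograft array could change the call of a sphere result at an unchanged log2 change, as for IFITM1, ISG15 and TAPBP. Same-numbered arrays of 2 groups correlated in their deviations from the group means at -0.194 to 0.242, and differently numbered arrays at -0.294 to 0.285. The main fit therefore used no pairing. Deviations from means of 3 arrays cannot exclude a shared batch. The fit was also run on simulated data, but no outcome is given here, so nothing about these arrays is concluded from that run.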

Additional observations from a re-analysis of the deposited data

How the results depend on the processing

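Of 60 called member changes, 12 kept their call under every alternative that could be run, the 2-fold threshold included, and none turned direction. A call with a change under 2-fold cannot pass that threshold, so its loss there was fixed in advance and says nothing of the processing. Requiring 2-fold left 4 higher and 2 lower in spheres, 1 and 3 in xenografts, and 0 and 4 in xenografts against spheres. Of all genes, 3.06% and 2.75%, 0.799% and 2.48%, and 2.7% and 4.87% passed it. For the other alternatives the share of all genes called was not computed, so counts under them have no background beside them. With only the 21 members of mean 5 or more, 2 were lower in spheres, 4 were higher in xenografts, and 2 were higher and 11 lower in xenografts against spheres, and the medians were 0.32, -0.017 and -0.50. The methods' t-test after Benjamini-Hochberg gave 2 higher in xenografts, and 3 higher and 10 lower against spheres. The xenograft median was 0.057 after quantile normalization, 0.060 after median centring and 0.046 when all probe sets of a gene were averaged, and the sphere median was 0.081 after centring. Without _x_at and _s_at probe sets, 5 members were higher in xenografts. The 0.13 median of all genes in xenografts against spheres was 0.12 after either rescaling. With 1 array left out, spheres gave 10 to 16 higher and 3 to 4 lower (median 0.093 to 0.15), xenografts 3 to 9 and 9 to 11 (0.094 to 0.15), and xenografts against spheres 5 to 7 and 14 to 18 (-0.37 to -0.073).

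With the replicate number as a block, 14 members were higher and 3 lower in spheres, 7 and 11 in xenografts, and 5 and 18 in xenografts against spheres. The block ended the XAF1 call in xenografts (adjusted p = 0.0749) and the MX1 call in xenografts against spheres (adjusted p = 0.0638). The latter, 0.38 (adjusted p = 0.0409), was also lost after quantile normalization (adjusted p = 0.092) and without adherent replicate 2 or 3, spheres replicate 1 or 2 or xenografts replicate 1 or 2 (adjusted p 0.0532 to 0.143). In the same comparison SAMD9L (-0.52, adjusted p = 0.0465) was lost without any 1 array but spheres replicate 3 (adjusted p 0.052 to 0.149), IFI44L (-0.47, adjusted p = 0.0303) without spheres or xenografts replicate 2 or 3 (adjusted p 0.0609 to 0.131), and IFIH1 (0.45, adjusted p = 0.0139) without spheres replicate 3 or xenografts replicate 2 (adjusted p 0.0503 to 0.0672). Calls gained there were IFITM1 (0.43, adjusted p = 0.0387) and OAS1 (0.38, adjusted p = 0.0197) without xenografts replicate 1, and IFI35 (0.42, adjusted p = 0.0202) and ISG15 (-0.52, adjusted p = 0.0318) without replicate 2. ISG15 was called in spheres without xenografts replicate 1 (adjusted p = 0.044).

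Of 97 pathway genes, whose alternatives were chosen after seeing the data, 15 were higher and 7 lower in spheres (15.5% and 7.22%, beside 13.5% and 16.3% of all genes), 11 and 18 in xenografts (11.3% and 18.6%, beside 12.6% and 14.3%), and 19 and 26 in xenografts against spheres (19.6% and 26.8%, beside 25.7% and 18.3%). In spheres, 12 were lower with array weights, 16 by the methods' t-test without adjustment, and 2 higher and 4 lower at 2-fold. In xenografts, 7 were higher with the replicate block, 4 higher and 7 lower by the t-test after adjustment, 0 and 3 at 2-fold, and 4 higher without _x_at and _s_at probe sets. Against spheres, 6 were higher by the adjusted t-test, 2 higher and 7 lower at 2-fold, and 7 higher without _x_at and _s_at probe sets. With 1 array left out the counts were 12 to 17 and 5 to 8, 5 to 11 and 10 to 19, and 13 to 19 and 24 to 26. A left-out array ended 5 of 22, 16 of 29 and 10 of 45 calls. The mean of all probe sets turned PARP9 in xenografts (0.053, adjusted p = 0.567) and PSMB7 in xenografts against spheres (-0.19, adjusted p = 0.112), and PLSCR1 in spheres turned to -0.059 without _x_at and _s_at probe sets. The causes were not tested.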
